A study of Homo sapiens with 4 samples.

Results

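Solute carriers are membrane proteins that move amino acids, sugars, lactate, choline, metals and ions across the plasma membrane and the membranes of organelles. They are named by family: the number after SLC is the family, and the number after the letter is the member. The genes described here are those in the deposited expression table whose symbol starts with SLC and a digit, which gave 36 of the 1648 genes listed. They came from 22 families. The table lists genes and not proteins, and transport itself was not measured.

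Poly(A) RNA was sequenced from HL-60 cells, an established human line taken from peripheral blood whose disease is labelled as acute promyelocytic leukemia, and which differentiates towards neutrophil-like cells when given all-trans retinoic acid (ATRA). The ATRA group (n = 2 samples) received 1 µM ATRA dissolved in ethanol for 4 days, and the control group (n = 2 samples) received the same volume of ethanol for the same time. In both groups the medium and the compound were renewed on day 2, and both grew in serum-containing medium with added non-essential amino acids, so amino acids were supplied to all cells. All samples come from 1 cell line, and the labels leave it unsaid whether samples within a group came from different cultures, so the spread between them may be technical.

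The comparison asks which genes differ after ATRA-induced differentiation. The table holds the authors' means per group for genes that their test called, with a limit of 0.01 on the adjusted p, and for 3 genes above that limit. All 36 members are under it. The reads of each library were restored from these means, and a value below is a normalised read count, which is the reads of a gene divided by the size factor of the library. Such a count grows with the length of the transcript, so it compares libraries for 1 gene and not genes with each other. The libraries are named a and b within each group. The reads in the listed genes came to 5576516 and 4940243 in the ATRA libraries and to 3799430 and 3288055 in the control libraries. The authors' call covered 1645 of 12265 tested genes, or 13.4%, of which 8.28% of the tested genes were higher with ATRA and 5.13% lower. Solute carrier genes that were tested but not called were not analysed here, so a share of called members is not given. "Rose" and "fell" below refer to this call. The exact two-sided permutation test of 2 against 2 libraries cannot give a p below 0.333, so it calls no single gene, and the spread is shown by the values of each library. In RNA from a whole culture, fewer cells expressing a gene and less RNA per cell cannot be told apart.

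Markers of the cell types that such a culture could hold were read beside the members. These markers, and the pathway lists below, were chosen with earlier results of these data known. Their counts of listed genes stand beside the 13.4% of all tested genes that were called. How many genes of each list were tested was not analysed here. Of 11 neutrophil markers 8 were listed, all higher, with summed counts of 102536 to 109020 in ATRA libraries and 11748 to 12168 in control libraries. Of 9 monocyte and macrophage markers 4 were listed, all higher, at 14974 to 18236 with ATRA and 3548 to 5933 in control. Of 10 eosinophil, basophil and mast cell markers 4 were listed, all lower, at 10773 to 38229 with ATRA and 93814 to 215034 in control, with PRG2, which stands above the authors' limit, making up nearly all of these reads. Of 7 promyelocyte markers 2 were listed, MYB and MYC, both lower with ATRA. Their sums were 12035 to 12072 in ATRA libraries and 61447 to 64597 in control libraries. The other promyelocyte markers searched, MPO, ELANE, PRTN3, AZU1 and CTSG, were not among the listed genes. The 6 erythroid markers were not among the listed genes. The part of these shifts in the values of the solute carriers was not tested.

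Of the 36 members, 19 were higher with ATRA (52.8%) and 17 lower (47.2%), beside 61.8% higher and 38.2% lower among all listed genes. The median log2 fold change was 2.09 over the members that were higher and -1.52 over those that were lower, and over all listed genes these medians were 1.87 and -1.47. In 15 members the groups differed over 4-fold, 10 higher and 5 lower, which is 41.7% beside a background of 40.0% of all listed genes. In size the members therefore lay close to the table as a whole. The ATRA and control libraries did not overlap in 36 of 36 members, but this held for 100.0% of the listed genes and says nothing particular about the members. The median distance between the libraries of a group was 0.25 on the log2 scale for ATRA and 0.26 for control, against a median absolute change of 1.75.

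**Figure D1:**
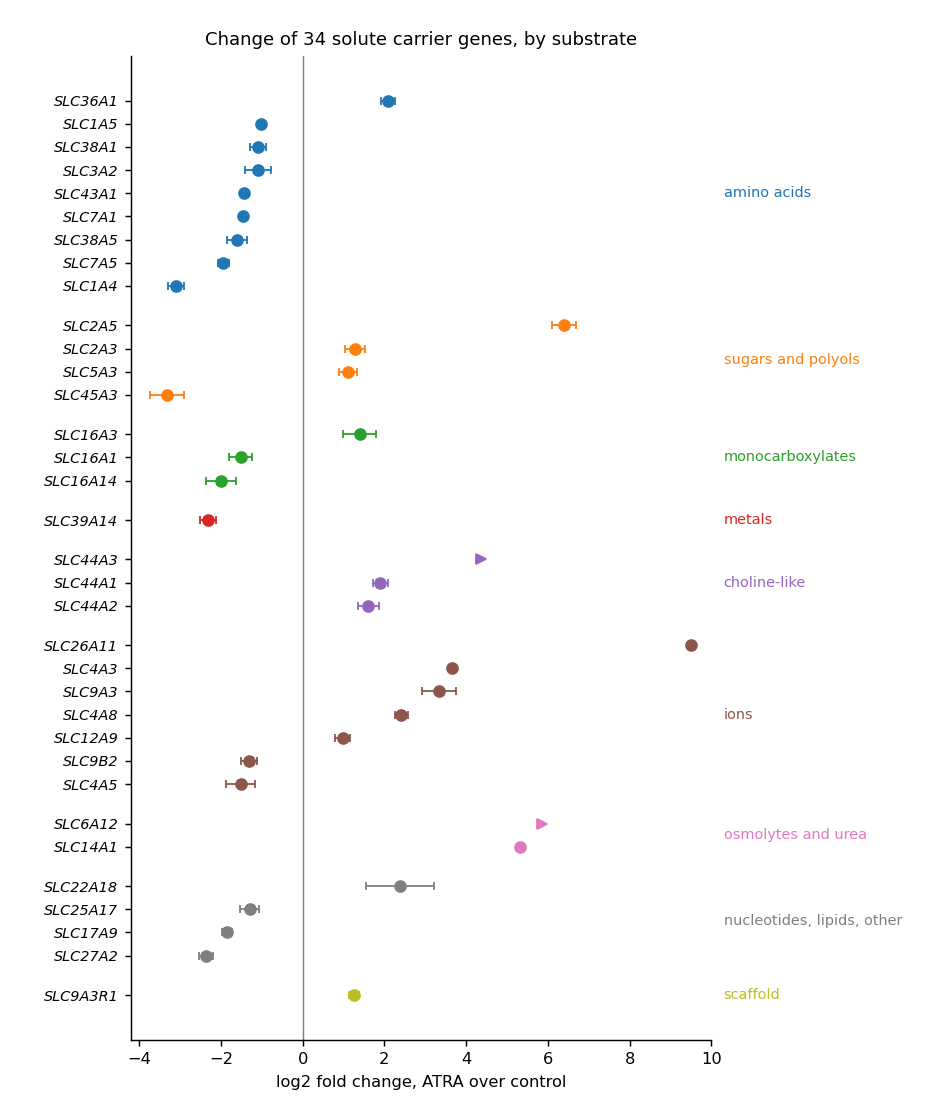
Log2 fold change (ATRA over control, x axis) of 34 of the 36 solute carrier genes, 1 row per gene, coloured and grouped by what the family carries. Bars are the standard error from 2 libraries per group, triangles are lower bounds for genes with 0 control reads, and SLC26A11 and SLC14A1 have no bar because 1 control library had 0 reads. Amino acid carriers stand to the left of 0 in 8 of 9 genes, and choline-like carriers to the right in 3 of 3.

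By substrate, 8 of 9 amino acid carriers fell, beside 38.2% lower among all listed genes. Of 9 ion carriers 7 rose, and all 3 choline-like carriers rose, beside 61.8% higher among all listed genes, so these last counts lie near the background for groups of this size. Among the 9 families with at least 2 members listed, all members rose in 3 families (among them SLC2 and SLC44), all fell in 3 (SLC1, SLC7 and SLC38), and members went both ways in the other 3 (SLC4, SLC9 and SLC16). These groups were drawn up with the results known, so they are a description.

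The amino acid carriers include exchangers, which swap one amino acid for another, and carriers driven by sodium or protons, and growing leukaemia cells use them to take up glutamine, leucine and serine. The 8 genes that fell did so by between 2.01 and 8.59 times, with a median log2 fold change over all 9 of -1.43, and the libraries within a group lay at most 1.48 times apart in these 8. Their summed counts were 25226 and 25978 in the ATRA libraries, against 66153 and 65313 in the control libraries, 2.57 times lower with ATRA.

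Both listed members of the SLC1 family fell. SLC1A4 (ASCT1), an exchanger of alanine, serine and cysteine, showed the largest fall of the amino acid carriers. It had 340.3 and 280.2 normalised reads with ATRA, against 2407 and 2926 in control, a log2 fold change of -3.10 ± 0.20 (SE, n = 2 each). SLC1A5 (ASCT2), the main glutamine exchanger of many tumour cells, had 5639 and 5806 with ATRA and 11489.7 and 11550.4 in control. Its fall of 2.01 times was the smallest of the 8, yet its libraries were among the closest of all members, with a standard error of 0.02 on the log2 scale around -1.01.

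SLC7A5 (LAT1) carries leucine and other large neutral amino acids, and works only as a dimer with the heavy chain SLC3A2 (CD98). SLC7A5 had 2468 and 2542 normalised reads with ATRA, against 10512 and 8779 in control, 3.85 times lower. SLC3A2 had 2480.2 and 1673 with ATRA and 4829.9 and 4058 in control, 2.14 times lower. Both chains of the transporter thus fell, with log2 fold changes of -1.94 ± 0.13 and -1.10 ± 0.31 (SE, n = 2 each). SLC7A1 (CAT1), which brings in arginine and lysine, had 5114 and 5623 with ATRA and 15219 and 14301 in control, a log2 fold change of -1.46 ± 0.08.

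The SLC38 family couples glutamine uptake to sodium. SLC38A1 (SNAT1) had 6185 and 7132 normalised reads with ATRA, against 12566 and 15877 in control, 2.14 times lower. SLC38A5 (SNAT5) had 1354 and 1384 with ATRA and 4892 and 3458 in control, 3.05 times lower. The control libraries of both genes stood apart more than most, at 1.26 and 1.42 times. SLC43A1 (LAT3), a facilitator for leucine and other branched-chain amino acids, averaged 1591 ± 76.5 with ATRA and 4300.0 ± 88.1 in control (SD, n = 2 each), 2.70 times lower.

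SLC36A1 was the exception among the amino acid carriers. It encodes PAT1, a proton-driven carrier of small amino acids on lysosomes and at the cell surface. It had 3797 and 3199 normalised reads with ATRA, against 891 and 754 in control, a rise of 4.25-fold (log2 fold change 2.09 ± 0.17, SE, n = 2 each).

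**Figure D2:**
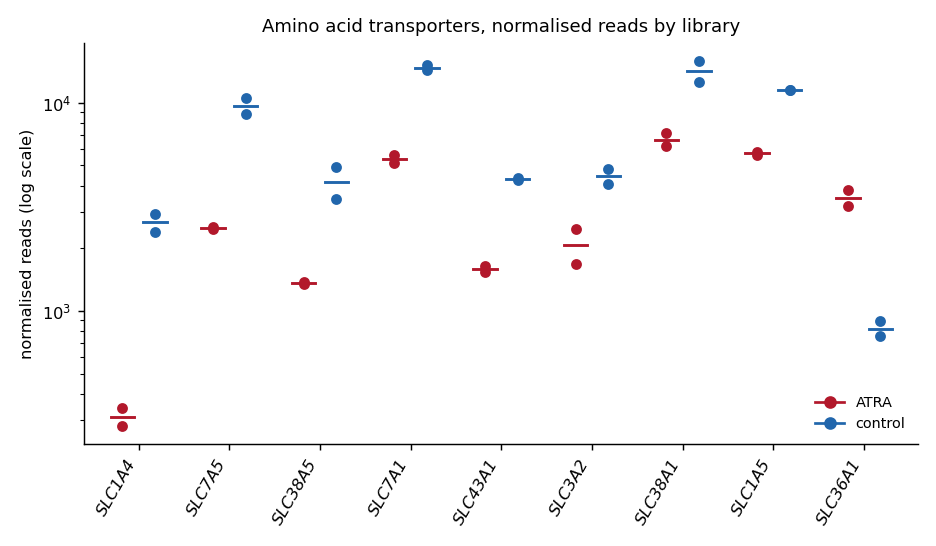
Normalised reads (log scale, y axis) of the 9 amino acid carriers in the libraries of ATRA (red, left) and control (blue, right) cells, with points for libraries and lines for group means. ATRA points lie under the control points in 8 genes and above them in SLC36A1.

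Amino acid carriers are known targets of ATF4, the transcription factor that cells make when amino acids run short or protein folding is stressed, together with the enzymes that make serine, asparagine and proline and the tRNA synthetases. Of a list of 41 such genes other than solute carriers, 27 were listed, 26 of them lower with ATRA and 1 higher. This stands beside 13.4% of all tested genes called, and 38.2% lower among all listed genes. The list was chosen with earlier results of these data known. The median of these 27 was -1.71 on the log2 scale, and that of all listed genes 1.23. ASNS, the asparagine synthetase, had 544 and 509 normalised reads with ATRA, against 4095 and 5718 in control, 9.32 times lower. PSAT1 and PHGDH, which act in serine synthesis, were 10.7 and 7.59 times lower, and AARS, the alanyl-tRNA synthetase, 3.27 times lower. CHAC1, which degrades glutathione, had 3 reads in the ATRA libraries and 1080 in the control libraries, 379 times lower, with an exact 95% counting interval of 134 to 1911 times. ATF4 itself was not among the listed genes. The 1 gene that stood higher was CEBPB, at 7136 and 2934 with ATRA and 1371 and 824 in control, which is 1 of the 3 rows above the authors' limit.

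**Figure D3:**
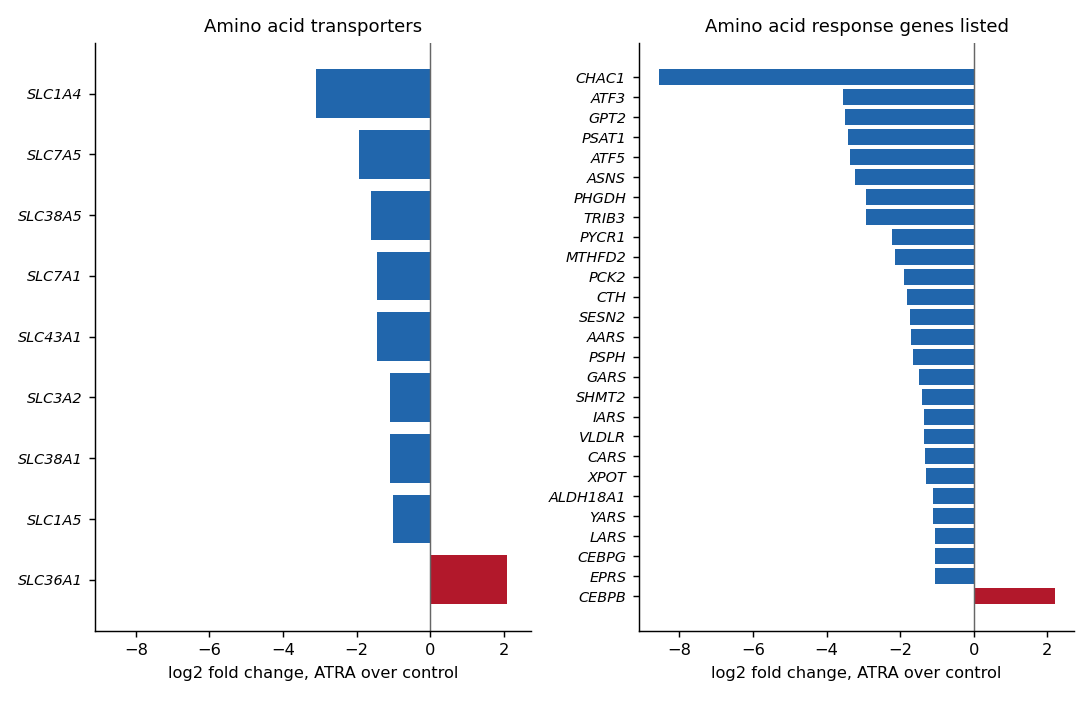
Log2 fold change (ATRA over control, x axis) of the 9 amino acid carriers (left) and the 27 listed genes of the amino acid response (right), with bars in blue for lower and red for higher with ATRA. Lower values fill 8 of 9 and 26 of 27 bars, and CHAC1 rests on 3 ATRA reads.

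Amino acids entering the cell are sensed by mTORC1, the kinase complex that drives growth. Of 21 genes of this sensing 6 were listed, 3 higher and 3 lower. TFEB, which switches on lysosomal genes, was 4.79-fold higher with ATRA, at 951 and 801 normalised reads against 140.0 and 226 in control. DEPTOR, an inhibitor of the kinase, was 24.4 times lower, at 9.10 and 4.99 with ATRA against 158 and 185 in control. EIF4EBP1, a target of the kinase, was 3.52 times lower and SESN2, a leucine sensor, 3.34 times lower, while SESN3 rose 4.62-fold and FNIP2 3.56-fold. Unlike the ATF4 list, with which it shares SESN2, this list went both ways.

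Promoter sequences of the members from RefSeq (GRCh38.p14) were searched on both strands for letters known from such genes. The windows run from 250 bases before to 50 bases after a transcript start, and 46 windows of 27 members were found by symbol. The amino acid response element, searched as TGATGNAA, was in 6 of the 46 windows (13.0%), beside 3.62% of all 35116 promoter windows. It occurred in 5 of the 8 amino acid carriers that fell and in SLC2A5. Some genes have several windows, and by window it was in 5 of the 15 of these amino acid carriers. Among windows of all listed genes the share was 2.22%. With the search limited to the bases before the start, 2 windows remained (4.35%, beside 3.14% of all windows), those of SLC1A5 and SLC2A5. The matches in SLC1A4, SLC3A2, SLC7A1 and SLC38A1 reach past the start or lie after it. The stretches of the 5 amino acid carriers follow because these genes fell together, each 30 bases 5′ to 3′ on the strand of the gene, with the match to TGATGNAA or to its reverse complement in capitals.
SLC1A4, chr2:64989381-64989410, plus strand: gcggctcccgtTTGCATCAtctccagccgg
SLC1A5, chr19:46784893-46784922, minus strand: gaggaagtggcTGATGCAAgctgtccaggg
SLC3A2, chr11:62881719-62881748, plus strand: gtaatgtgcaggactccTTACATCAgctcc
SLC7A1, chr13:29595663-29595692, minus strand: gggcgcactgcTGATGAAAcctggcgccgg
SLC38A1, chr12:46266502-46266531, minus strand: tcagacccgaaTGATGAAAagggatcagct

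The E-box CACGTG, a sequence read by MYC and by TFEB among other factors, was in 6 of the 46 windows (13.0%), beside 7.26% of all promoter windows. It occurred in 4 amino acid carriers that fell, among them SLC7A5, SLC38A5 and SLC43A1, in SLC36A1, which rose, and in the ion carrier SLC12A9. The stretches of 4 of these genes are shown because MYC and TFEB are themselves listed genes, and SLC36A1, which has 2 matches, is shown with 1 of them. The E-box is in capitals.
SLC7A5, chr16:87869619-87869648, minus strand: gccggacgacgCACGTGctccgagctgggc
SLC38A5, chrX:48470448-48470477, minus strand: cctgtagcggaCACGTGgcttgcctgggac
SLC43A1, chr11:57515796-57515825, minus strand: agcgggcgagtCACGTGcgcgtgaaactcg
SLC36A1, chr5:151447549-151447578, plus strand: gctcaagggagCACGTGacctcggcctctg

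The half-site AGGTCA of the retinoic acid receptor was in 3 windows (6.52%), those of SLC1A5, SLC36A1 and SLC44A2, beside 13.8% of all windows, and direct repeats of it spaced by 5 or 2 bases were in 0 of the 46. In SLC1A5 the half-site and the amino acid response element above lie in windows of different transcript starts. A match is only a run of letters in this window, and binding was not measured here.

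Among the sugar and polyol carriers 3 of 4 rose. SLC2A5 (GLUT5), which carries fructose, showed a rise of 84.0-fold. It had 11972 and 16238 normalised reads with ATRA, against 191 and 145 in control, a log2 fold change of 6.39 ± 0.29 (SE, n = 2 each). SLC2A3 (GLUT3), the high-affinity glucose carrier of neutrophils and neurons, had 4464 and 3334 with ATRA and 1475 and 1760 in control, 2.41-fold higher. Its close copy SLC2A14 was not among the listed genes, and reads of the 2 genes may not have been kept apart. SLC5A3, which takes up myo-inositol with sodium, averaged 2975 ± 612 with ATRA and 1383 ± 34.2 in control, 2.15-fold higher, but its direction is turned by scaling on the median of the listed genes, described below. SLC45A3, named prostein after the prostate, fell to 37.3 and 20.9 with ATRA, against 299 and 287 in control, and its ATRA libraries lay 1.78 times apart.

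Of 26 genes of glycolysis and lactate handling 6 were listed, 3 higher and 3 lower. FBP1, an enzyme of gluconeogenesis, rose 27.3-fold and HK3, a hexokinase of myeloid cells, 23.2-fold, though HK3 had 429 and 57.0 normalised reads in the control libraries. PFKM showed the largest fall of this list, at 5.94 times lower. LDHA and LDHB, the subunits of lactate dehydrogenase, were 2.40 and 1.95 times lower.

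Lactate leaves and enters cells through the SLC16 family, and its listed members went both ways. SLC16A3 (MCT4), the carrier that exports lactate from glycolytic cells, rose, with 9853 and 8418 normalised reads with ATRA, against 4427 and 2543 in control. SLC16A1 (MCT1), which carries lactate and pyruvate in either direction, fell, with 2134 and 1937 with ATRA and 6941 and 4742 in control. The log2 fold changes were 1.39 ± 0.42 for SLC16A3 and -1.52 ± 0.28 for SLC16A1 (SE, n = 2 each). SLC16A14, a member whose substrate is less well known, fell to 76.4 and 48.9 with ATRA, against 282 and 221 in control, 4.02 times lower. In SLC16A3 the control libraries were 1.74 times apart. Scaling on the median of the listed genes, described below, left its log2 fold change at 0.23.

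**Figure D4:**
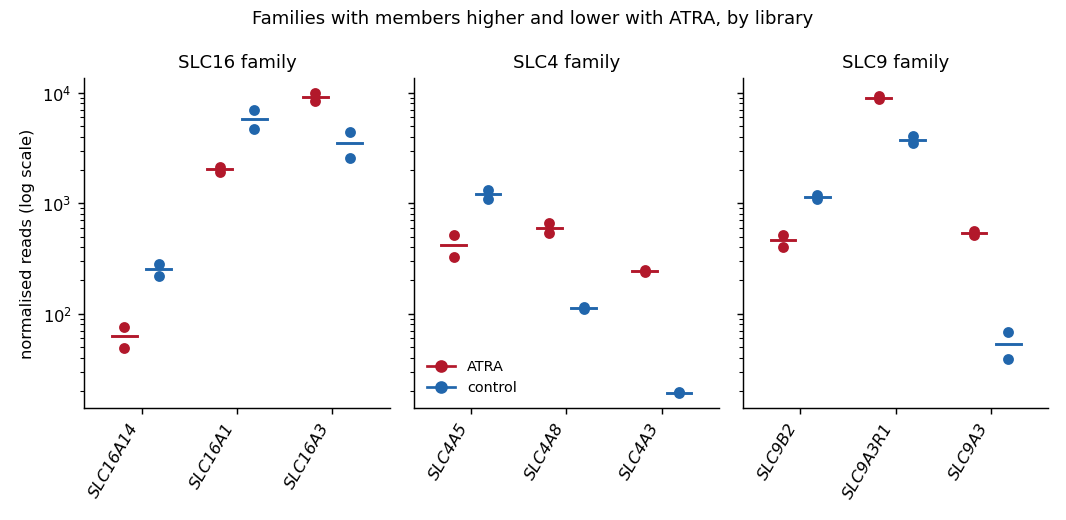
Normalised reads (log scale, y axis) of 9 members of the SLC16, SLC4 and SLC9 families in the libraries of ATRA (red, left) and control (blue, right) cells, with points for libraries and lines for group means. Each family has members on both sides: SLC16A1, SLC16A14, SLC4A5 and SLC9B2 are lower with ATRA and the others higher.

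The SLC4 and SLC9 families set the pH of the cell, by moving bicarbonate in exchange for chloride or with sodium, and by trading protons for sodium. In SLC4, the chloride-bicarbonate exchanger SLC4A3 (AE3) had 247 and 237 normalised reads with ATRA, against 19.4 and 19.0 in control, 12.6-fold higher. SLC4A8 (NDCBE), which exchanges chloride for bicarbonate with the help of sodium, had 537 and 669 with ATRA and 109.9 and 116 in control, 5.33-fold higher. The sodium-bicarbonate cotransporter SLC4A5 (NBCe2) went the other way, with 512 and 329 with ATRA and 1317 and 1097 in control, 2.87 times lower. Exons of SLC4A5 overlap those of MTHFD2 on the opposite strand, which fell too (log2 fold change -2.13), and whether counting used strand is not stated, so the reads of these genes may not be separable.

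SLC9A3 (NHE3), a proton exchanger better known from kidney and gut, had 514 and 565 normalised reads with ATRA and 38.9 and 68.2 in control, 10.1-fold higher. SLC9A3R1 is named after SLC9A3 but encodes a scaffold protein that tethers it to the cytoskeleton and is no carrier. It rose as well, to 9258 and 8746 with ATRA, against 4042 and 3476 in control, 2.39-fold. SLC9B2, a sodium-proton exchanger of another branch, fell to 405 and 517 with ATRA, against 1099.8 and 1193 in control, 2.49 times lower. Of 24 other genes of pH and volume control 4 were listed and 4 were lower. This share listed lay near the 13.4% of all tested genes that were called. CA2, a carbonic anhydrase, was 8.32 times lower, and LRRC8C, a subunit of the volume-regulated anion channel, 3.91 times lower.

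The SLC12 family moves chloride with potassium or sodium and adjusts cell volume. SLC12A9 had 4414 and 5389 normalised reads with ATRA and 2308 and 2678 in control, 1.97-fold higher, the smallest change of the 36, and scaling on the median of the listed genes turns it. Its exons overlap those of EPHB4 on the opposite strand, which was lower with ATRA (log2 fold change -2.49).

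Size factors of the authors were used above. When the libraries were scaled by their totals over the listed genes the median log2 fold change of all listed genes moved by -0.44, and by -1.15 when scaled on the median ratio over the listed genes, where most genes are higher with ATRA. Under the second scaling SLC5A3 came to -0.0405 and SLC12A9 to -0.17 on the log2 scale. The other 34 members kept their direction under both, but under the second the rises shrank and the falls grew. Several rises lost most of their size. The log2 fold change was 0.11 for SLC9A3R1, 0.12 for SLC2A3, 0.23 for SLC16A3 and 0.46 for SLC44A2.

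In 4 members the control libraries held 3 reads or fewer. SLC26A11, an anion and sulphate carrier, had 565 and 249 normalised reads with ATRA from 621 and 250 reads, against 0 and 1 reads in control. The control mean was 0.559 normalised reads, under the floor of 3 reads. The ratio of the means was 729, and the exact 95% counting interval of the ratio of pooled reads ran from 143 to 31517. Leaving out ATRA library a moved the log2 fold change to 8.80 from 9.51, leaving out control library a moved it to 8.51, and without control library b only a bound of at least 7.12 was left. It was 8.03 with a pseudocount of 1 and 8.06 from the means as printed. SGSH, whose exons overlap SLC26A11 on the opposite strand, was not among the listed genes.

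SLC6A12 (BGT1), which takes up the osmolyte betaine and the transmitter GABA, had 106 and 84 reads with ATRA and 0 and 0 in control. Against a floor of 3 reads over both control libraries it was at least 57.8-fold higher with ATRA. SLC14A1, the urea carrier that carries the Kidd blood group, had 98 and 45 reads with ATRA, against 0 and 3 in control, a ratio of means of 40.0 with a counting interval of 14.6 to 214. These intervals cover counting error only. Leaving out control library a or b took the bound for SLC6A12 to 4.75 or 4.95 from 5.85 on the log2 scale, and SLC14A1 to 4.32 or at least 4.52 from 5.32. With a pseudocount of 1, SLC6A12 came to 6.51 and SLC14A1 to 4.67, and the means as printed gave 6.51 for SLC6A12.

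The choline-like carriers of the SLC44 family take up choline, which cells need for the phospholipid phosphatidylcholine. SLC44A1 (CTL1) had 8561 and 8719 normalised reads with ATRA, against 2035 and 2585 in control, 3.74-fold higher. SLC44A2 (CTL2), which carries the human neutrophil antigen HNA-3, had 2999 and 2185 with ATRA and 779 and 921 in control, 3.05-fold higher. SLC44A3 had 43 and 25 reads with ATRA and 0 and 0 in control, at least 20.5-fold higher, and the bound fell to 3.26 or 3.46 from 4.36 on the log2 scale without control library a or b. With a pseudocount of 1 SLC44A3 came to 5.05, and to 5.01 from the means as printed. All 3 listed members therefore rose, with summed counts of 11599 and 10929 in ATRA libraries and 2814 and 3505 in control libraries. Of a list of 14 genes drawn up for choline and phosphatidylcholine, 3 were listed. CHPT1, which makes phosphatidylcholine, was 2.11 times lower, and PLD1, a phospholipase that releases choline, 3.29 times lower. PLD3, on the list as a relative of PLD1 by name, was 2.63-fold higher, and any part of it in choline use was not tested.

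**Figure D5:**
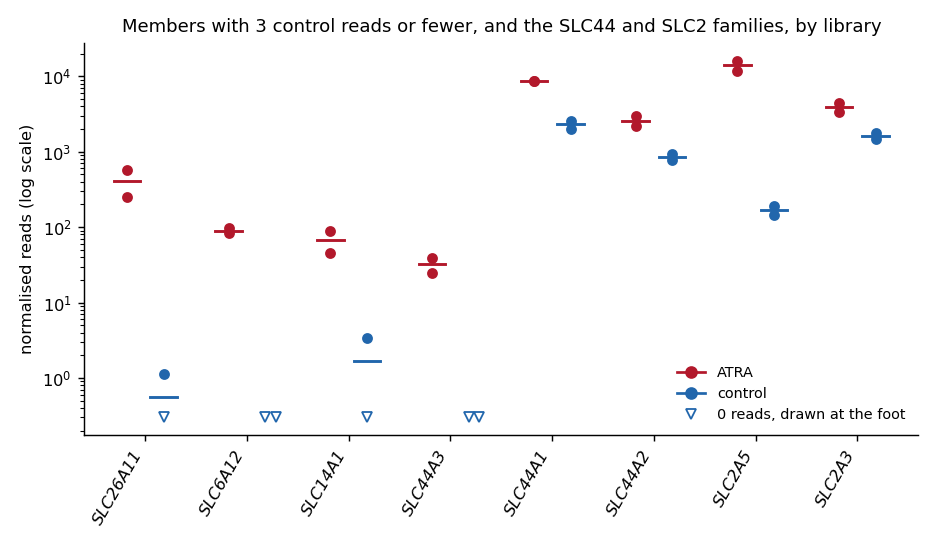
Normalised reads (log scale, y axis) of the members with 3 control reads or fewer (SLC26A11, SLC6A12, SLC14A1 and SLC44A3) and of the other SLC44 and SLC2 members, in the libraries of ATRA (red, left) and control (blue, right) cells. Lines are group means and open triangles at the foot of the axis are libraries with 0 reads; SLC2A5 is 84.0-fold higher with ATRA, while both control libraries of SLC6A12 and SLC44A3 are at 0.

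SLC39A14 (ZIP14), which brings zinc, manganese and iron into the cell, was the only metal carrier listed. It had 752 and 761 normalised reads with ATRA, against 4272 and 3276 in control, 4.99 times lower. Of 20 other genes of zinc and iron handling only MTF1, the zinc-sensing transcription factor, was listed, at 2.30-fold higher with ATRA.

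The other 4 members serve fats, nucleotides and organelles, and 3 of them fell. SLC27A2 (FATP2), which activates and takes up long fatty acids, had 767 and 647 normalised reads with ATRA, against 3319 and 3915 in control, 5.12 times lower. Its exons overlap ATP8B4 on the opposite strand, which moved the other way (log2 fold change 1.63). SLC17A9, which loads ATP into vesicles, averaged 1325 ± 159 with ATRA and 4787 ± 107 in control, 3.61 times lower, and SLC25A17, a cofactor carrier of peroxisomes, 488 ± 34.3 and 1198 ± 257, 2.46 times lower (SD, n = 2 each). SLC22A18, from an imprinted region of chromosome 11, had 265 and 157 normalised reads with ATRA and 59.3 and 21.2 in control, 5.23-fold higher. The control libraries of SLC22A18 lay 2.79 times apart, and without control library a its log2 fold change was 3.31 in place of 2.39.

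Positions of all 36 members were found in GENCODE 44 on GRCh37, the build of the study. In 14 of them exons overlap a gene on the opposite strand and in 4 a gene on the same strand. SLC2A5 spans chr1:9095165-9148537 and SLC7A5 chr16:87863629-87903113, both on the minus strand, and SLC1A4 spans chr2:65215611-65250999 on the plus strand. Of the amino acid carriers, SLC7A5 overlaps an unnamed gene on the opposite strand.

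Other transporter classes were few in the table. Of 4 listed ABC transporters 3 were higher and 1 lower, of 3 listed SLCO transporters 2 were higher and 1 lower, and 0 aquaporins were listed. ABCC6 stood 20.1-fold higher with ATRA, at 163 and 245 normalised reads against 13.6 and 6.70 in control, and SLCO4A1 was 3.69 times lower.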

How the data were processed

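Poly(A) RNA from 2 ATRA and 2 control samples had been sequenced; groups follow the labels. As the paper's methods and the labels' processing entries give it, adapters were removed (cutadapt), ribosomal reads filtered with Bowtie, and reads quantified with RSEM 1.2.7 on an hg19 (GRCh37) annotation and compared with DESeq2 1.4.5. The column names match an older DESeq release, so the version behind the table is unsure. Strand use is not stated.

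The mean columns are a signal deposited by the authors: counts divided by size factors and averaged over a group or over all libraries. In them every digit 0 had become 1 (0 zeros among 73360 digits). Each mean was restored by finding the 2 whole read counts and size factors that give its text; exactly 1 solution existed for all 1648 genes in both groups, and the mean over all libraries was given back in 1648 rows. The recovered size factors were 1.10 and 1.00 for ATRA and 1.03 and 0.895 for control. The restoring was tested on simulated data. Which library is which replicate number is not known. The p-value columns deposited by the authors were read only for the number of genes tested and the limit; their fold and log2 columns hold the authors' comparison and were not used. No model across genes was fitted, because genes outside the authors' call are not in the table. Depth over all genes is unknown.

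Log2 fold changes are ratios of group means, with standard errors from the log2 values of 2 libraries per group. Groups at 0 reads were set to a floor of 3 reads over both libraries. All members but 2, which are not reported here, are named, with library values for families with 2 or more members and for the largest changes. The members, substrate groups, pathway and marker lists and motifs were chosen with earlier results of these data known. Alternatives were the means as printed, 2 other scalings, each library left out, at least 10 reads in the lower group, a pseudocount of 1, a 4-fold limit and a motif search before the start only. Python 3.11.15, numpy 2.4.6, pandas 2.3.3 and scipy 1.17.1 were used.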

Additional observations from a re-analysis of the deposited data

How the results depend on the processing

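No paired analysis was possible because the table has no column per sample and the restored libraries carry no replicate numbers. The counts of 19 members higher and 17 lower were the same in every leave-one-out setting. That outcome was fixed in advance, because the ATRA and control libraries overlap in none of the members. With the limit at 4-fold they were 10 and 5, and without the 9 members whose libraries of a group lie over 1.5 times apart, a choice made after seeing the data, 13 were higher and 14 lower. Scaled by library totals over the listed genes, the median log2 fold changes were -1.88 for amino acids, 0.75 for sugars and polyols, -1.96 for monocarboxylates, 1.46 for choline-like, 1.21 for ions, 5.14 for osmolytes and urea and -2.01 for the nucleotide, fatty acid and organelle group. Scaled by median ratios they were -2.58, 0.039, -2.68, 0.76, 0.49, 4.45 and -2.73 in the same order; these scalings rest on the listed genes only. SLC5A3 (-0.0405) and SLC12A9 (-0.17) were reversed there, and 318 of 320 settings of single genes kept the direction. Of these settings, 144 left out 1 library and could not turn a direction. A pseudocount of 1 or a limit on reads could not do so either, so this share does not measure stability. Without 1 library, the medians ran from 1.63 to 1.86 for ions (1.65 with all) and from 4.54 to 5.84 for osmolytes and urea (5.59 with all), where the control reads were 3 or fewer. The nucleotide, fatty acid and organelle median was -1.58, and -1.85 without SLC22A18. With 2 libraries per group, the precision is limited, and for 4 genes by 3 control reads or fewer.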
